A study of Mus musculus with 48 samples.

Results

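Transcripts of 7 lysosomal hydrolases were compared in hippocampal microglia, the resident macrophages of the brain, between 3 ways of rearing mouse pups. The members were the cathepsins Ctsb, Ctsd, Ctsf, Ctsl and Ctss, the asparaginyl endopeptidase Lgmn (legumain) and the glycosidase Gla (alpha-galactosidase A), taken by name from tables of 478 genes of a glial probe panel. All 7 stand in each of the 3 tables, which their choice from those tables required, and no further filter was applied here. Per the series text the authors used genes above 20 counts, so the 478 genes may not be the whole panel. Microglia came from 17-day-old pups of the strain given as Balbc/Byj, and all groups held males and females. The groups were LB and UPS, as the labels name them, and CTL, the control rearing. As background, LB is known as rearing with limited bedding and nesting material, and UPS adds unpredictable stress to it. Each group had 16 libraries, 8 per sex, spread evenly over 4 batches, and some pups shared a litter, since each set of 8 was drawn from 4 to 5 litters. About 60000 microglia per pup were sorted by flow cytometry after a Percoll gradient, lysed, and their RNA was counted with barcoded probes.

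Lysosomal hydrolases are acid enzymes that break down what a cell engulfs or recycles. Most are made as inactive precursors, travel to endosomes and lysosomes, and are activated there by acid and by each other. Cathepsins cut proteins, legumain cuts after asparagine and trims several cathepsins to their mature form, and Gla removes terminal galactose from glycolipids. In microglia these enzymes digest synaptic material, myelin and dead cells, and some of them also process antigens and endosomal receptors. Their activity is set by precursor processing, acidity and protein inhibitors as well as by transcript level, and only transcript was measured here.

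The values are log2 ratios between 2 rearing groups, with p-values, from the authors' deposited tables. The headers do not say which group is on top of the ratio. Comparisons are named here as LB against CTL, UPS against CTL and UPS against LB, and signs are as deposited. If the second group in a table's name is on top, a positive sign means more transcript in LB or UPS than in CTL, or more in UPS than in LB. The reverse reading turns every sign. The 3 ratios of a gene are tied, since the UPS against LB ratio equals the UPS against CTL ratio minus the LB against CTL ratio to within 0.003 for every gene. Both comparisons with CTL share its 16 libraries. No level per animal is given, because values per library were not analysed here. In sorted bulk samples, fewer cells of a type and less RNA per cell cannot be told apart.

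None of the 7 members passed in any of the 3 comparisons at a Benjamini-Hochberg adjusted p below 0.05 over all 478 genes. In LB against CTL no gene of the panel passed (0% of genes). In UPS against CTL 4.81% of all genes passed, and in UPS against LB 6.28%. At an unadjusted p below 0.05 there were 2 members in LB against CTL, Ctsd and Ctss, where 11.7% of all genes had such a p. There was 1 in UPS against CTL, Ctss (16.3% of all genes), and 1 in UPS against LB, Ctsd (18.8% of all genes). The differences were small. Of the 21 member ratios, 18 were under 1.1-fold in size, and 17 of the 21 recovered 95% intervals included no difference.

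**Figure D1:**
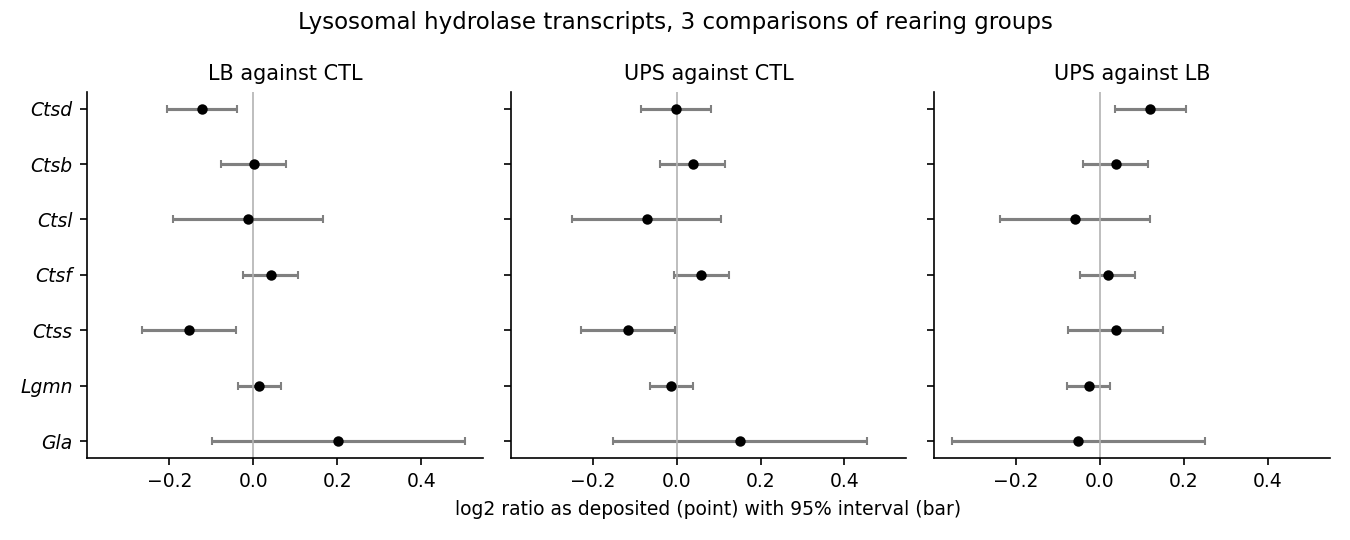
Log2 ratio as deposited (points) with the recovered 95% interval (bars) for each of 7 members, in LB against CTL, UPS against CTL and UPS against LB. The 4 intervals that leave out 0 are those of Ctsd in LB against CTL and UPS against LB, and of Ctss in LB against CTL and UPS against CTL. The bars of Gla are the widest and those of Lgmn the narrowest, and the direction of the ratio is not stated in the tables.

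Ctsd came closest to the threshold. It encodes cathepsin D, the main aspartic protease of lysosomes, and its loss causes a lysosomal storage disease of the brain. In the authors' deposited table its log2 ratio in LB against CTL was -0.12 (0.919-fold, recovered 95% interval -0.21 to -0.038, p = 0.00551, adjusted p = 0.198). In UPS against LB it was 0.12 in the authors' deposited table (1.09-fold, interval 0.036 to 0.20, p = 0.00607, adjusted p = 0.0726), and it was the only member below 0.10, as 10% of all genes were. In UPS against CTL it was -0.0015 in the authors' deposited table, with an interval from 0.942-fold to 1.06-fold. LB thus lay apart from both other groups by about the same distance, while the distance between UPS and CTL was near 0, and this arrangement does not depend on the direction of the ratios.

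Because the same standard error held for all 3 ratios of a gene, the 3 tables could be joined into a test over all groups, an F test on the recovered t values. It asks whether the rearing groups differed at all and needs no direction. Of all genes, 6.9% passed it at an adjusted p below 0.05, and none of the 7 members did. At an unadjusted p below 0.05 there were 2 members, Ctsd and Ctss (19.9% of all genes), and at an adjusted p below 0.10 there was 1, Ctsd (8.79% of all genes). Ctsd had F = 5.61 (p = 0.00675, adjusted p = 0.0806) and was the 40th of 478 genes by p, where 33 passed. When LB was set against the mean of UPS and CTL, Ctsd differed by -0.12 on the log2 scale with the deposited sign (recovered 95% interval -0.19 to -0.048, adjusted p = 0.0569). It was the 14th gene by p in that contrast, where 13 genes (2.72%) passed. With every ratio measured from the median ratio of its table, which shifted the UPS against LB ratios by 0.010, Ctsd passed in UPS against LB (log2 ratio 0.13, adjusted p = 0.0467), as did 7.11% of all genes. It also passed in LB against the mean of UPS and CTL (adjusted p = 0.0455), as did 2.51% of all genes. Each table was centred on its own median, so the 3 centred ratios of Ctsd (-0.126, 0.00091 and 0.130) no longer kept the tie between comparisons. The pass in UPS against LB rests on that separate centring. Over the settings tried, the adjusted p of Ctsd in UPS against LB ran from 0.0467 to 0.10.

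**Figure D2:**
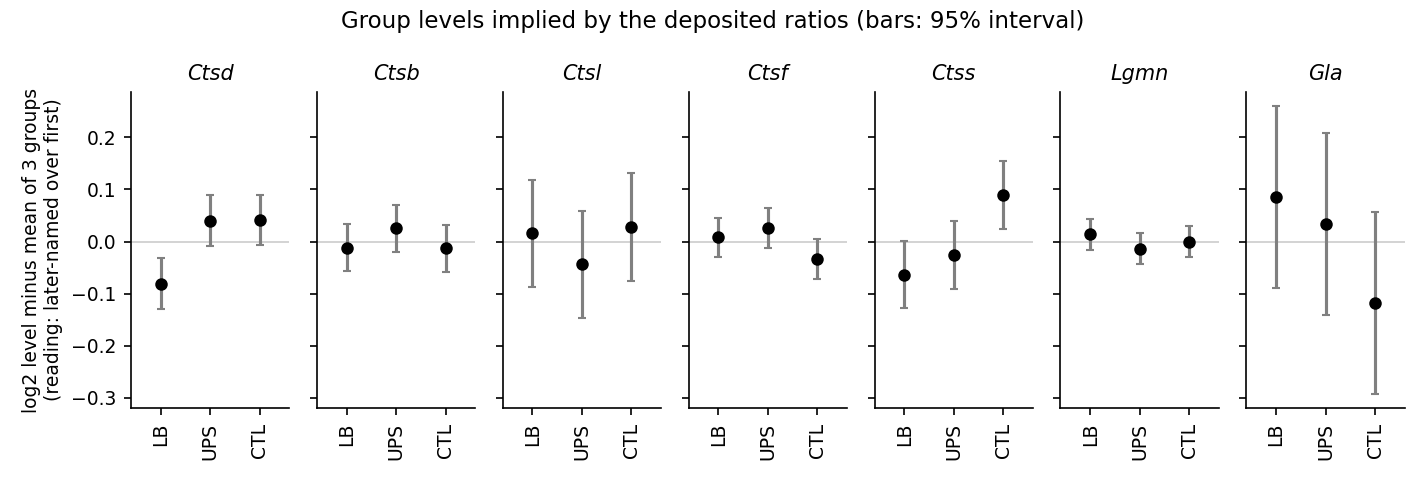
Log2 level of each member in LB, UPS and CTL relative to the mean of the 3 groups, computed from the deposited ratios, with bars for the 95% interval. The axis takes each ratio as later-named over first-named group, and the reverse reading turns every panel upside down. For Ctsd, LB stands at -0.081, against 0.040 for UPS and 0.041 for CTL, and for Ctss, LB stands at -0.063 and UPS at -0.026, against 0.090 for CTL.

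Lysosomal genes are known to share an E-box-like promoter element, bound by TFEB, a transcription factor that raises lysosomal gene output. The stretch upstream of Ctsd is shown because it holds this element in its extended palindromic form and because Ctsd had the smallest adjusted p of the members. It covers the 250 bases before the annotated start site on the minus strand (chr7:142387828-142388077, RefSeq, GRCm38.p6), 5′ to 3′, with CACGTG and TCACGTGA in capitals.
Ctsd: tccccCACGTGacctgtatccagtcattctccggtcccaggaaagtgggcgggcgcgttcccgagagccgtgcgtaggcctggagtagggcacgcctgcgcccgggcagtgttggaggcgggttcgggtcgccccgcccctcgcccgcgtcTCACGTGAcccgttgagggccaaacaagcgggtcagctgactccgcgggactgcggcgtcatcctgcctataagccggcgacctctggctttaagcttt

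The extended match lies 99 to 92 bases before the start site and contains a CACGTG, and a further CACGTG lies 245 to 240 bases before it. RefSeq windows of 300 bases, from 250 before to 50 after a start site, were searched for both motifs, which read the same on both strands. CACGTG was found in 7.15% of 32851 such windows of the mouse genome and TCACGTGA in 0.974%. A match is a description of the letters and no evidence of binding.

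The other member with small unadjusted p-values was Ctss. It encodes cathepsin S, a cysteine protease that stays active at neutral pH, is made mainly by phagocytes and antigen-presenting cells, and cuts the invariant chain from class II molecules. In the authors' deposited table its log2 ratio in LB against CTL was -0.15 (0.899-fold, recovered 95% interval -0.27 to -0.040, p = 0.00885, adjusted p = 0.209). In UPS against CTL it was -0.12 in the authors' deposited table (0.923-fold, interval -0.23 to -0.0034, p = 0.0437, adjusted p = 0.298). LB and UPS lay on the same side of CTL for Ctss, and they differed from each other by 0.037 in the authors' deposited table (interval -0.075 to 0.15, adjusted p = 0.751).

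Over the 3 groups Ctss had F = 4.09 (p = 0.0235, adjusted p = 0.152). CTL against the mean of LB and UPS gave 0.13 on the log2 scale with the sign of the later-over-first reading (interval 0.037 to 0.23, p = 0.00795, adjusted p = 0.234), and no gene of the panel (0%) passed in that contrast. LB against the mean of UPS and CTL gave -0.095 for Ctss (interval -0.19 to 0.0025, adjusted p = 0.300). By point estimate alone, the outlying group was CTL for Ctss and LB for Ctsd, and neither contrast passed. Whether the profiles of the 2 genes differ from each other was not tested.

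The Ctss start-site window holds no CACGTG. It holds a match to the core of an interferon response element (GAAA, any 2 bases, GAAA), 21 to 12 bases before the start site, and, across the start site, a reverse-strand match to GAGGAAGT, a site of the myeloid factor PU.1. Both were searched on both strands after the sequence had been seen, and the matches do not overlap each other. The interferon core occurred in 3.44% and GAGGAAGT in 3.20% of all windows. The stretch is shown because the interferon core was found in no other member window. The GAGGAAGT match also occurs in Gla, 148 to 141 bases before its start site. It runs from 50 bases before to 10 after the start site on the plus strand (chr3:95526736-95526795, RefSeq, GRCm38.p6), with both matches in capitals.
Ctss: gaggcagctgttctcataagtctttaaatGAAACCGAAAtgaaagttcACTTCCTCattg

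The remaining cysteine cathepsins did not pass in any comparison. Ctsb encodes cathepsin B, an abundant protease that trims peptides from their carboxyl end and is known to reach the cytosol when lysosomes leak. In the authors' deposited tables its log2 ratios were 0.00056 in LB against CTL, 0.038 in UPS against CTL and 0.037 in UPS against LB. The recovered intervals of Ctsb stayed within 0.948-fold and 1.08-fold in all 3 comparisons. For Ctsb a change of more than about 1.08-fold in either direction therefore lay outside every interval. UPS was the outlying group by distance, and the contrast of UPS with the mean of LB and CTL was 0.038 (interval -0.030 to 0.11, adjusted p = 0.616), in which 7.32% of all genes and none of the 7 members passed.

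Ctsf encodes cathepsin F, a cysteine protease whose loss causes a form of neuronal ceroid lipofuscinosis. Its log2 ratios in the authors' deposited tables were 0.041 in LB against CTL (p = 0.214), 0.059 in UPS against CTL (p = 0.0779, adjusted p = 0.358) and 0.018 in UPS against LB (p = 0.588). LB and UPS lay on the same side of CTL, opposite in sign to Ctss. The recovered intervals of Ctsf ran from 0.967-fold to 1.09-fold over the 3 comparisons, and each included no difference.

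Ctsl encodes cathepsin L, a strong general endopeptidase of lysosomes. Its log2 ratios in the authors' deposited tables were -0.013 in LB against CTL (p = 0.887), -0.072 in UPS against CTL (p = 0.421) and -0.059 in UPS against LB (p = 0.507). Its intervals were wide, from 0.841-fold to 1.12-fold over the 3 comparisons, so a difference of about the size seen for Ctsd or Ctss would not have been detectable for Ctsl at this precision.

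Legumain was the most precisely measured member. In the authors' deposited tables Lgmn had a log2 ratio of 0.014 in LB against CTL (p = 0.589), -0.013 in UPS against CTL (p = 0.603) and -0.027 in UPS against LB (p = 0.291). Its standard error of 0.025 was the 11th smallest of the 478 genes. Over the 3 comparisons its recovered intervals ran from 0.947-fold to 1.05-fold, which leaves out a change of the size deposited for Ctsd or Ctss in LB against CTL. CTL lay between LB and UPS for Lgmn, and the F test over the groups gave 0.571 (p = 0.569, adjusted p = 0.739).

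Gla, the glycosidase, had the largest member ratios in both comparisons with CTL and the poorest precision of the members. Loss of Gla lets galactose-ended glycolipids accumulate in lysosomes, as in Fabry disease. In the authors' deposited tables its log2 ratios were 0.20 in LB against CTL (1.15-fold, p = 0.182), 0.15 in UPS against CTL (1.11-fold, p = 0.318) and -0.051 in UPS against LB (p = 0.729). The recovered interval in LB against CTL ran from 0.934-fold to 1.42-fold. Its standard error of 0.15 ranked 445th of 478, and each interval included no difference, so a change of this size could not be told from none for Gla.

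**Figure D3:**
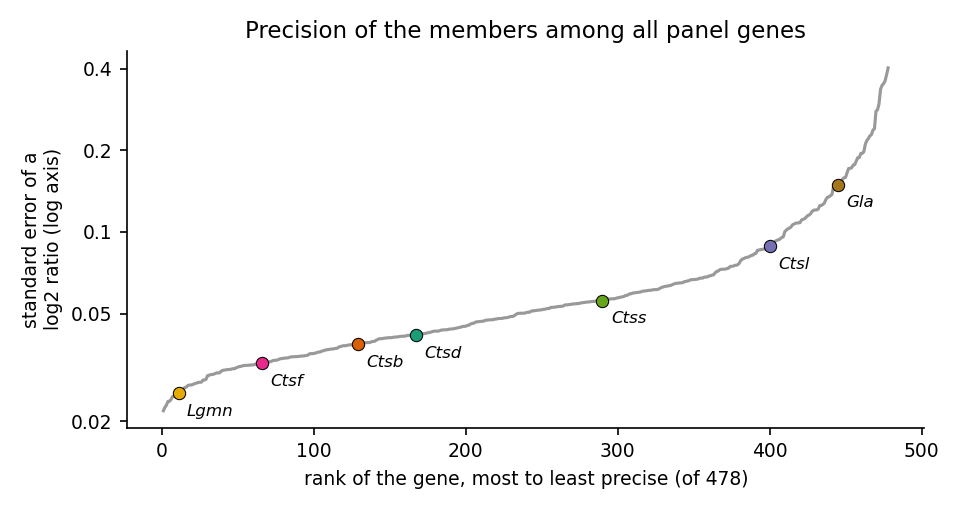
Recovered standard error of a log2 ratio (log axis) for all 478 genes in order of precision, with the members marked. Lgmn is at 0.025, Ctsf at 0.033, Ctsb at 0.039, Ctsd at 0.042, Ctss at 0.056, Ctsl at 0.089 and Gla at 0.15.

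The standard errors also give a residual spread between libraries of a group, on the assumption of 16 independent libraries per group. The authors' fit had batch as covariate, so differences between batches are not part of this spread. For Lgmn this residual SD was 0.072 on the log2 scale, or 1.05-fold. For Ctsd it was 0.12 (1.09-fold), for Ctss 0.16 (1.12-fold), for Ctsl 0.25 (1.19-fold) and for Gla 0.42 (1.34-fold). The whole range between the groups of Ctsd was 1.09-fold, and so of the same size as its residual SD. For Ctss the range was 1.11-fold and for Gla 1.15-fold, each at or below the residual SD of that gene. The median standard error was 0.042 over the 7 members and 0.050 over all genes.

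The stretch upstream of Gla is shown because it carries the extended element in 2 copies, and Gla is the member whose ratios are least certain. It covers the 250 bases before the start site on the minus strand (chrX:134601006-134601255, RefSeq, GRCm38.p6), with TCACGTGA in capitals and the GAGGAAGT match left in lower case.
Gla: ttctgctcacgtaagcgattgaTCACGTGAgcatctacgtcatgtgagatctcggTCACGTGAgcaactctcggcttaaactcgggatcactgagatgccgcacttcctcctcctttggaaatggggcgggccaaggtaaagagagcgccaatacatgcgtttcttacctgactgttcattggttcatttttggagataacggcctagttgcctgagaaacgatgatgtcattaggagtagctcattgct

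The copies lie 228 to 221 and 195 to 188 bases before the start site. Of the 7 members 6 had a window in the RefSeq table, Ctsb being the other, and Lgmn had windows for 2 start sites. A CACGTG without the extended form was present in the windows of Ctsl and Ctsf and at the second start site of Lgmn. In chromosome coordinates the Ctsl start site lies at -252 from the RefSeq gene start, and the second of Lgmn at -636. Both genes are on the minus strand, so these sites and their CACGTG matches lie inside the annotated gene. The stretches of 30 bases around these are given for comparison with the extended form, with CACGTG in capitals, at chr13:64370739-64370768 on the minus strand for Ctsl, chr19:4855074-4855103 on the plus strand for Ctsf and chr12:102439124-102439153 on the minus strand for Lgmn.
Ctsl: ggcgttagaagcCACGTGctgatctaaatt
Ctsf: caccccgtggtcCACGTGcctcgcgtaaat
Lgmn: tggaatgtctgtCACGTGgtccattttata

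**Figure D4:**
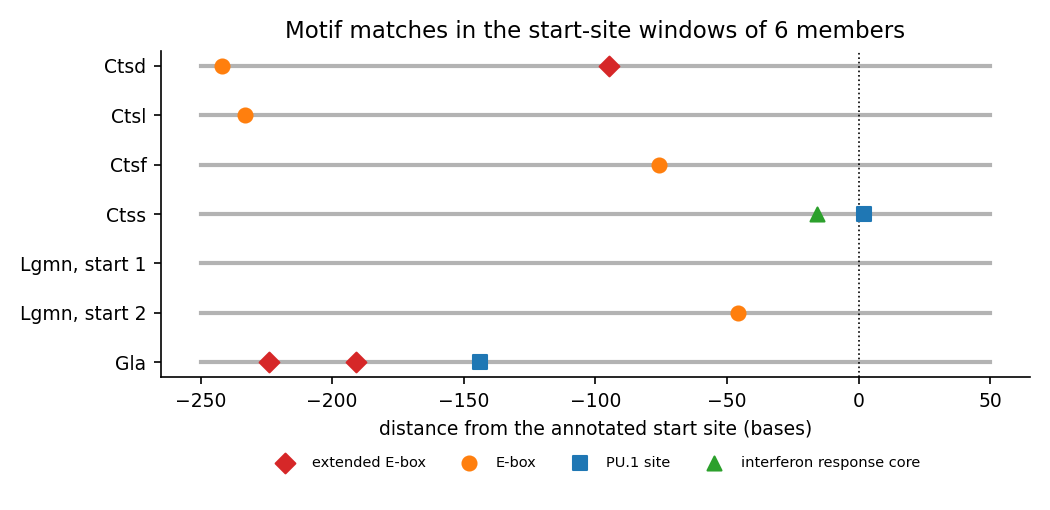
Position of motif matches, in bases from the annotated start site (dotted line), in the 300-base RefSeq windows of 6 members. Each grey line is a window and each symbol the centre of a match on either strand. For Ctsl and the second window of Lgmn the start site lies inside the annotated gene. TCACGTGA (diamonds) is present only in the windows of Ctsd and Gla among these members, and Ctss has the match to the interferon response core (triangle).

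The members that share the extended element, Ctsd and Gla, stood at -0.12 and 0.20 in LB against CTL in the authors' deposited table, and neither passed. The recovered interval of Gla, -0.099 to 0.50, included both signs, so its sign is not settled. Whether the element bears on the ratios was not tested. Across the 7 members the signs were mixed. In LB against CTL 4 were positive and 3 negative, beside 52.7% positive among all genes. In UPS against CTL 3 were positive and 4 negative, beside 48.7% positive among all genes, and in UPS against LB 4 were positive and 3 negative, beside 43.9%. The median log2 ratio of the members was 0.00056, -0.0015 and 0.018 in those 3 comparisons, and the median of all genes was 0.0035, -0.0025 and -0.010.

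The other lysosomal genes sought by name did not pass either. Of 18 measured genes for lysosomal glycosidases and thioesterases, membrane proteins, the proton pump, sorting factors and cathepsin inhibitors, 0 passed in each comparison by the deposited p with Benjamini-Hochberg adjustment. Of all genes, 0%, 4.81% and 6.28% passed in LB against CTL, UPS against CTL and UPS against LB. At an unadjusted p below 0.05 there was 1 of the 18 in LB against CTL (11.7% of all genes). There were 2 in UPS against CTL (16.3%) and 1 in UPS against LB (18.8%). The median log2 ratio of the 18 was -0.0059, 0.0072 and 0.012 in that order. The 14 further lysosomal proteases sought by name were not among the 478 genes. Whether they were off the panel or below the authors' count cut was not checked.

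Among the hydrolases of that list, Galc, which degrades a myelin galactolipid, stood at 0.0069 in LB against CTL, 0.042 in UPS against CTL and 0.035 in UPS against LB on the log2 scale of the authors' deposited tables. Ppt1, a thioesterase that removes fatty acids from proteins, stood at 0.0039, 0.0024 and -0.0015 in the authors' deposited tables for the same comparisons. Both lay near no difference, and neither passed.

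Cst3, the secreted cystatin that inhibits cysteine cathepsins, stood at -0.032, 0.012 and 0.044 on the log2 scale of the authors' deposited tables, and none passed. The lysosomal membrane glycoprotein Lamp1 had 0.073 in LB against CTL (p = 0.0191, adjusted p = 0.326) and 0.061 in UPS against CTL (p = 0.0486, adjusted p = 0.304) in the authors' deposited tables, opposite in sign to Ctss in both. Lamp2, a membrane protein of the same family, and Cd68, a phagocyte lysosomal glycoprotein, each lay within 0.025 of 0 in all 3 comparisons.

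None of 8 measured subunits of the proton pump that acidifies lysosomes passed, and none had an unadjusted p below 0.05. The smallest p among them belonged to Atp6v1g1 in UPS against CTL, at 0.099 in the authors' deposited table (p = 0.0556). Mtor, the kinase that holds TFEB in the cytosol when nutrients are plentiful, had 0.11 in UPS against CTL (p = 0.0274, adjusted p = 0.238) and 0.12 in UPS against LB (p = 0.0205, adjusted p = 0.153) in the authors' deposited tables. Grn, the precursor of the lysosomal granulins, had -0.13 and -0.17 in the same authors' deposited tables, with p-values of 0.337 and 0.215. Neither gene passed.

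Transcripts of proteins on which these proteases act were measured as well. Tlr7, which senses single-stranded RNA in endosomes, is cut by endosomal proteases, cathepsins and legumain among them, before it signals. Its log2 ratio was 0.45 in UPS against CTL (adjusted p = 1.64e-06 by Benjamini-Hochberg over the deposited p) and 0.49 in UPS against LB (adjusted p = 1.66e-07) in the authors' deposited tables. Tlr3, the other endosomal Toll-like receptor measured, did not pass in any comparison. It stood at -0.019 in UPS against CTL (Benjamini-Hochberg adjusted p = 0.896) and 0.095 in UPS against LB (adjusted p = 0.401) in the authors' deposited tables. The largest member ratio of any sign in those 2 comparisons, that of Gla, was 0.15. Cd74, the invariant chain that cathepsin S cuts, had a log2 ratio of 0.30 in the authors' deposited table for LB against CTL (adjusted p = 0.533), and its recovered interval was wide, -0.096 to 0.69.

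**Figure D5:**
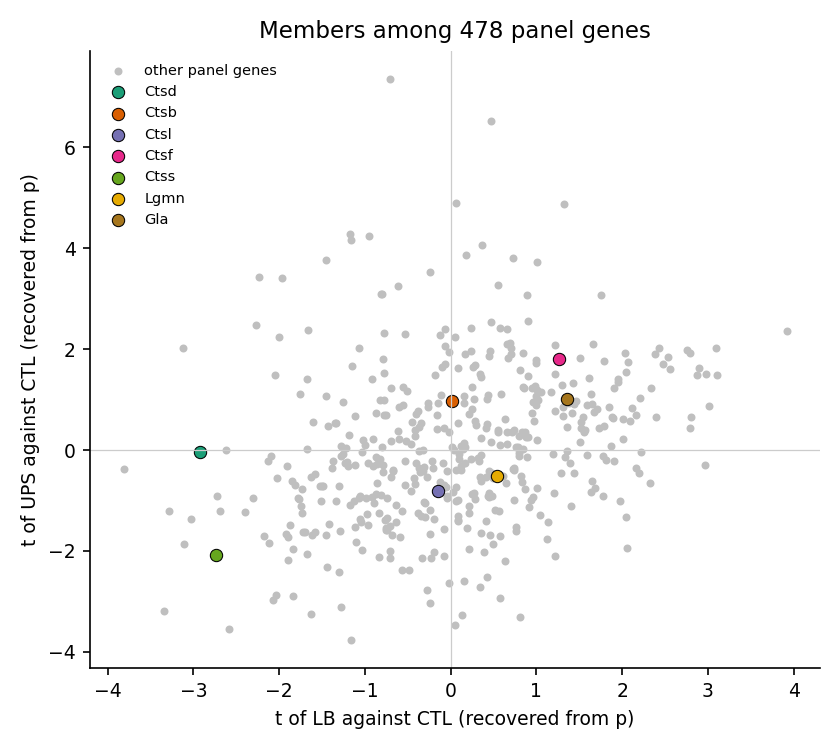
Recovered t of LB against CTL (horizontal) and of UPS against CTL (vertical) for all 478 genes (grey) with the 7 members in colour. Ctsd lies at -2.92 and -0.037 and Ctss at -2.74 and -2.08, while the other members lie between -0.81 and 1.81 on both axes. Both axes share the CTL libraries, which by itself ties them.

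The genes whose pattern over the 3 groups was most like that of Ctsd, by the distance between their pairs of t values in the comparisons with CTL, were Tspo, Sall3 and Cd14, at distances of 0.305, 0.808 and 0.823. In the authors' deposited table for LB against CTL these stood at -0.55, -0.26 and -0.12 on the log2 scale, and none passed in any comparison. The genes nearest to Ctss were Olfml3, Hsd17b4 and F11r, at distances of 0.424, 0.661 and 0.675, and stood at -0.17, -0.12 and -0.10 on the log2 scale in the authors' deposited table for LB against CTL. None of these passed either. Likeness here rests on only 3 group levels from the same libraries.

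All 14 microglial markers sought were in the tables, but the tables hold ratios and no levels, so the purity of the cells could not be read from them. None of these 14 passed in LB against CTL (0% of all genes) or UPS against CTL (4.81%). In UPS against LB 2 passed, C1qa and Tmem119 (6.28% of all genes). Of 13 measured markers of other cells, 0 passed in LB against CTL by the deposited p with Benjamini-Hochberg adjustment. There were 2 at an unadjusted p below 0.05 (11.7% of all genes). Those were Cd34, a vascular and stem cell marker, and Csf3r, a neutrophil receptor, at -0.42 and -0.17 in the authors' deposited table. Both had the same negative sign as Ctsd and Ctss there, as had 226 of all 478 genes, while 4 of the 7 members were positive. In LB against CTL a positive ratio was found for 2 of the 13 (median -0.050), beside 52.7% of all genes. In UPS against CTL and in UPS against LB the astrocyte gene Slc1a3 and the border macrophage gene Stab1 passed. In UPS against CTL 7 of the 13 had a positive ratio (median 0.033), beside 48.7% of all genes. An unadjusted p below 0.05 was found for 5 (16.3% of all genes). In UPS against LB 11 of the 13 had a positive ratio, the sign of Ctsd there (median 0.068), beside 43.9% of all genes. An unadjusted p below 0.05 was found for 6 (18.8% of all genes). Whether microglia themselves make transcripts of these 13 genes was not checked. The part of other cells in the ratios of the members was not tested.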

How the data were processed

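RNA of sorted hippocampal microglia was counted on the nCounter mouse glial panel in 48 libraries, run in 4 batches of 12, per the labels' protocols. The authors deposited 3 tables of comparisons between rearing groups. Per the file headers, each gives for 478 genes the log2 and the linear fold change (a ratio), the p-value, and that p-value after Benjamini-Hochberg adjustment. Per the series text, the authors used genes above 20 counts in a multivariate analysis of variance and then nSolver's advanced analysis of each pair with batch as covariate. How counts were normalized, and by which version, is not given in the sources used here. Counts per library were not used, so depth is unknown.

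No model was refitted. The authors' deposited p-values were adjusted over the 478 genes of each table with a threshold of 0.05, and this called the same genes as the authors' deposited adjusted p. Standard errors were recovered from log2 ratio and p with a t distribution, taking for each gene the table with the largest t. Among 6 candidate models, 44 residual degrees of freedom, of rearing and sex without batch, gave the smallest median mismatch between tables (0.128%). Those of rearing and batch, 42, gave 0.132%, and the choice between such models of all 48 libraries is not settled. Models of 2 groups gave 0.300% and 0.389%. The mismatch fell with every rise in degrees of freedom, so it does not by itself identify the model. F was the sum of the 3 squared t values divided by 3. Litter is not in the fit, so p-values are too small where pups of a litter are alike. The steps were tested on simulated data.

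Some genes that the rule for named genes picks are not reported here. The members and gene lists were chosen with earlier results of these data known. Named genes were all members, up to 3 genes of each pathway list with the smallest p or past the threshold in a comparison, and the 3 genes nearest to each member with an F test p below 0.05. Cell markers and the remaining list genes named to complete a count were chosen after their values were seen. Promoter windows came from RefSeq (GRCm38.p6). Python 3.11.15, numpy 2.4.6, scipy 1.17.1, pandas 2.3.3 and matplotlib 3.10.9 were used.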

Additional observations from a re-analysis of the deposited data

How the results depend on the processing

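No paired analysis was possible because the tables hold comparisons and no values per library, and for the same reason no library could be left out. The count of members past the threshold was 0 in each comparison, in the F test and in each contrast of a group with the mean of the others. It became 1, Ctsd, in UPS against LB and in LB against the mean of UPS and CTL after centring on the table median (7.11% and 2.51% of all genes). It also became 1, Ctsd, at an adjusted p below 0.10 in UPS against LB (10% of all genes), in LB against the mean of UPS and CTL (5.02%) and in the F test (8.79%). In the 3 pairwise comparisons it stayed 0 with the deposited adjusted p and with the tables adjusted together, and in these and the F test with the degrees of freedom of 2 groups. Centring turned the signs of Ctsb in LB against CTL (-0.0030) and of Ctsd in UPS against CTL (0.00091), both near 0. Because each table was centred on its own median, the centred ratios of a gene are no longer tied. Degrees of freedom of 2 groups changed interval widths by factors of 0.985 to 1.01, and those of rearing and batch, added after seeing the data, by 0.999 to 1.00. Genes of all the panel past the threshold in LB against CTL were 0, and 3 with the tables adjusted together. Direction, depth and litter could not be resolved from the tables.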
